A study of Mus musculus with 3 samples.

Results

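Neutrophils with high Ccl3 and Ccl4 were described in 3 single-cell libraries from the mouse calvaria, the roof of the skull. Barcodes entered if 500 or more genes were found in them and mitochondrial genes gave no more than 10% of their unique molecular identifiers (UMIs, counted RNA molecules). A member had at least 20 CP10K (UMIs per 10000 of the cell) of Ccl3 and Ccl4 together and at least 1 UMI of Csf3r, the receptor for G-CSF. It also had no UMI of the macrophage genes Csf1r, C1qa and C1qb, and under 5 CP10K of the epithelial keratins Krt8 and Krt18 together. The rule found 548 members among 23831 kept barcodes, 29 in the control library, 316 in scratch-negative and 203 in scratch-positive. The 7492 barcodes that met every other criterion but held less Ccl3 and Ccl4 are called the other neutrophils. Members were thus chosen by their measured Ccl3, Ccl4, Csf3r, macrophage and keratin counts, so every comparison of members with other neutrophils below is a description.

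All mice were C57BL/6 aged 8 weeks, with no engineered allele named in the labels. The control calvaria carried no tumour. In scratch-negative, which the labels call the pre-invasive stage, HNM007 cells (a mouse squamous carcinoma line) were placed on intact bone. In scratch-positive, the invasive stage, a needle had first been drawn over the bone, which takes off the periosteum. Both tumour groups were sampled 1 week after implantation with the tumour excised, and live CD45+ and CD45– cells were combined in equal parts. Each group is 1 library, the number of mice behind it is not stated in the sources used here, and scratched bone without tumour is not among the groups. The scratch, the missing periosteum and invasion therefore cannot be told apart, and no p-value is given. The printed intervals are exact 95% intervals that cover counting error only.

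Neutrophils are short-lived granulocytes made in the marrow, which the calvaria also contains. As they mature they fill successive granules with proteins, and the transcripts for those proteins are switched off before the cell leaves for the blood. In tissue, a mature neutrophil exposed to microbial or cytokine signals can switch on chemokine and cytokine genes, many of them targets of the transcription factor NF-kB. CCL3 and CCL4 attract monocytes, macrophages and lymphocytes. CXCL2 and CXCL3 attract further neutrophils through CXCR2, and IL-1α is an alarm cytokine made by many cell types.

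Ccl3 (chr11:83647844-83649355) and Ccl4 (chr11:83662584-83664683) are neighbours on GRCm38. Cxcl3 (chr5:90786103-90789600) and Cxcl2 (chr5:90903871-90905938) share a chromosome but lie farther apart. Il1a lies at chr2:129299610-129309972. The promoter stretches of 4 of these genes are shown because Cxcl2 and Cxcl3 were among the genes that differed most between members and other neutrophils. Each stretch runs from base −130 to base −31 before the RefSeq start, 5′ to 3′ on the gene's strand, from RefSeq sequence of build GRCm38.p6, with matches to the NF-kB consensus in capitals. The stretches lie at chr5:90903769-90903868 (plus strand), chr5:90785971-90786070 (plus strand), chr11:83649409-83649508 (minus strand) and chr2:129310003-129310102 (minus strand), in the order of the lines.
Cxcl2: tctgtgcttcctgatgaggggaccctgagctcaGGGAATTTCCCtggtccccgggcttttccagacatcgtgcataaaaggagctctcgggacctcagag
Cxcl3: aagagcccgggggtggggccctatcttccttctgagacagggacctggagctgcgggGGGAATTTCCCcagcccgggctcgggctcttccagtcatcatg
Ccl3: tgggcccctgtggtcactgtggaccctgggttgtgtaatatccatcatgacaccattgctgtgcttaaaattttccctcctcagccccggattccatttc
Il1a: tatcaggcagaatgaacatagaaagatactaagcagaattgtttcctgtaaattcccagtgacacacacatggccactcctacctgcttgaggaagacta

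Cxcl2 and Cxcl3 carry the same stretch of capitals, in which 2 overlapping matches to the NF-kB consensus lie. On both strands and over the 200 bases before the start, that consensus was matched in at least 1 promoter of 3.65% of the 27025 genes in the RefSeq table. It was matched in 10 of the 21 NF-kB list genes with a promoter in the table (47.6%), a list made up of NF-kB targets and feedback genes. Among chemokine genes it was matched in 5 of 11 (45.5%), namely Ccl9, Cxcl1, Cxcl2, Cxcl3 and Cxcl10. The other lists ran from 0% (azurophil granule) to 31.6% (interferon gamma response). The Ccl3 and Il1a windows held no match to the NF-kB consensus. Of further genes searched, Tnf, Icam1 and Il1rn held none either, whereas Nfkbia and Csf1 did. Il1a had a match to the AP-1 letters TGANTCA from −12 to −6, outside the printed stretch, and such a match occurred in 6.36% of those genes. A match describes letters only, and binding was not measured.

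Neutrophil markers were detected in the members. Of the 12 markers (such as S100a8, S100a9, Cxcr2, Ly6g, Mmp9 and Retnlg), all had UMIs in the members of every library, Csf3r by the rule. Their summed level was 314312 CPM (the set's UMIs scaled to counts per 1e+06) in control members, 307217 CPM in scratch-negative and 222297 CPM in scratch-positive. In the other neutrophils it was 351445, 331885 and 292172 CPM. Members with low Camp (a set defined below) had 292393, 190842 and 169229 CPM. Other neutrophils with low Camp had 360248, 377082 and 304230 CPM. Under the 2-fold rule given below, 1 of the 12 was higher and 4 lower in those members of each tumour library. Without regard to Camp, 4 were higher in scratch-negative and 5 in scratch-positive, and none lower. The 13 macrophage markers summed to 65.7, 107 and 145 CPM in control, scratch-negative and scratch-positive members. In the other neutrophils they summed to 31.75, 42.5 and 81.5 CPM, with Csf1r, C1qa and C1qb at 0 in both by the rule. By the 2-fold rule given below, 6 of 10 tested were higher in scratch-negative members and 3 of 8 in scratch-positive, and none lower. The part of macrophage RNA in the member values was not tested. The 7 monocyte markers summed to 709, 460 and 497 CPM, against 604, 622 and 592 CPM in the other neutrophils. In the kept barcodes without a Csf3r UMI they summed to 611, 852 and 246.5 CPM. Those barcodes still held neutrophil markers, at 209933, 155902 and 14026 CPM. The 8 eosinophil markers summed to 21.9, 14.6 and 19.6 CPM, of which 1, 5 and 3 were detected. In the same barcodes without Csf3r they summed to 17.5, 10.4 and 3.15 CPM, and Epx was at 0 there as well. The carcinoma markers summed to 7.31, 13.9 and 137 CPM, with Krt8 and Krt18 limited by the rule and Krt5, Krt19 and Epcam at 0 in the members of every library. The stroma markers (collagens and others) summed to 190, 2652 and 150 CPM, against 287, 3297 and 1286 CPM in the other neutrophils, so among members they stood highest in scratch-negative.

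Among the 5 markers given for these cells, Ccl4 was found in nearly every member by construction, and Cxcl2 in 72.4% of control, 98.4% of scratch-negative and 99.0% of scratch-positive members. Free RNA in the droplets was gauged in keratin-high cells of scratch-positive. Transcripts that such cells make themselves would add to these values, so the values do not measure free RNA alone. With every cell thinned to 2000 UMIs, Cxcl2 was found in 3.50% of 3344 such cells, Cxcl3 in 0.419% and Il1a in 0.239%. The same thinned shares in scratch-positive members with low Camp (a set defined below) were 100% for Cxcl2, 54.5% for Cxcl3 and 48.8% for Il1a, over 121 cells. Unthinned, Cxcl2 was found in 50.5% of keratin-high cells at a median of 62512 UMIs and in 99.3% of those members at 2569 UMIs. The unthinned medians of Cxcl3 and Il1a in those members were 6.925 and 1.746 CP10K. In scratch-negative members with low Camp, both medians were 0 CP10K.

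Members made up 0.895% of neutrophils in control (29 of 3240, interval 0.600 to 1.28%). They made up 8.50% in scratch-negative (316 of 3716, 7.63 to 9.45%). In scratch-positive they made up 18.7% (203 of 1084, 16.5 to 21.2%). The 3 intervals did not overlap, but no spread between mice stands behind them. Of all kept barcodes the shares were 0.441, 3.88 and 2.23%, and these depend on how many CD45– cells each library holds. When all neutrophils were thinned to 2000 UMIs before the rule was applied, the shares were 1.54, 14.9 and 24.0%, in the same order.

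The rule left out other barcodes with as much Ccl3 and Ccl4. Of 74 kept barcodes at or above 20 CP10K in control, 29 were members. There were 532 such barcodes in scratch-negative and 316 were members, and 553 in scratch-positive with 203 members. Csf1r or C1q genes took out 19, 137 and 210 of them in control, scratch-negative and scratch-positive. Of those taken out, 13, 124 and 156 also held a Csf3r UMI, and whether they were macrophages was not tested. A further 26, 79 and 100 held no Csf3r UMI, and 40 in scratch-positive were keratin-high. Just inside the threshold, from 20 to 25 CP10K, there were 9, 33 and 9 members. Just outside it, from 15 to 20 CP10K, there were 8, 41 and 18 other neutrophils. No member's barcode was shared with a member of another library, and between 14 and 27 kept barcodes were shared by each pair of libraries.

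Members fell into 2 groups by Camp, which encodes the cathelicidin antimicrobial peptide of specific granules and is transcribed in the marrow stages. The groups were named Camp-low (under 50 CP10K and at most 20000 UMIs) and Camp-high (50 CP10K or more), a division chosen after the data had been seen. Camp-low members numbered 26 in control, 211 in scratch-negative and 155 in scratch-positive, and Camp-high members 3, 105 and 45. The 3 remaining scratch-positive members had low Camp but over 20000 UMIs. So did 68, 117 and 19 other neutrophils of control, scratch-negative and scratch-positive. Ribosomal protein genes gave a median of 29.1, 24.3 and 21.2% of their UMIs, against 2.74, 2.39 and 2.85% in all other neutrophils. Whether these deep cells are neutrophils was not tested. They remain in the shares of all neutrophils and in the comparisons made without regard to Camp. Among the other neutrophils, Camp-low cells were 30.1, 29.9 and 26.7%, while among members they were 89.7, 66.8 and 76.4%. Members were 2.62% of Camp-low neutrophils in control, 17.2% in scratch-negative and 39.7% in scratch-positive. They were 0.138, 4.43 and 6.70% of Camp-high neutrophils.

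**Figure D1:**
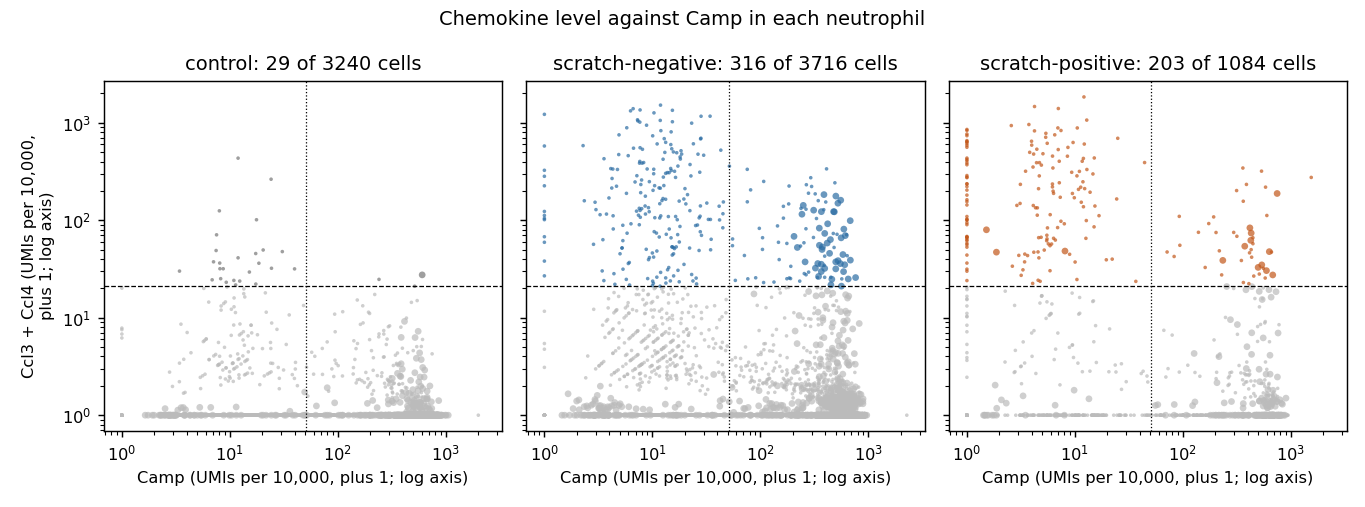
Each point is a neutrophil of the control, scratch-negative or scratch-positive library, with Camp on the x axis and Ccl3 plus Ccl4 on the y axis, both as UMIs per 10000 plus 1 on log axes; coloured points (dark grey in control) are members, pale points the other neutrophils, and larger points cells over 20000 UMIs. Members lie above the dashed line at 20 UMIs per 10000, and most lie left of the dotted line at a Camp level of 50, where 26, 211 and 155 of them are Camp-low.

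The groups differed in depth and chemokine level. Camp-low members held a median of 3877, 2983 and 2569 UMIs in control, scratch-negative and scratch-positive, and Camp-high members 13976, 18014 and 13820. Their median Ccl3 plus Ccl4 was 33.2, 138 and 188 CP10K in Camp-low members and 23.7, 57.3 and 53.1 CP10K in Camp-high members. In scratch-negative, 38 of 105 Camp-high members (36.2%) were among the highest doublet scores, against 225 of 2265 Camp-high other neutrophils (9.93%) and 5 of 211 Camp-low members (2.37%). In scratch-positive none of 45 Camp-high members was, and 4 of 627 Camp-high other neutrophils were (0.638%). A count of 0 of 45 allows a share of up to 6.67% by the limit of 3 cells and up to 7.87% by the exact 95% interval. The part of doublets in the Camp-high results was not tested. The comparisons by gene therefore rest mainly on Camp-low members against the 1018 (scratch-negative) and 235 (scratch-positive) Camp-low other neutrophils.

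A gene was called higher or lower when the summed levels differed at least 2-fold with the whole interval on the same side of 1, given 20 or more UMIs in both sets together. In scratch-negative, 761 of 7198 genes (10.6%) were called higher in Camp-low members than in Camp-low other neutrophils and 420 (5.83%) lower. In scratch-positive, 355 of 4355 (8.15%) were called higher and 378 (8.68%) lower. The median log2 ratio over all tested genes was −0.01 and −0.05. Of the genes called higher, 260 were called in both libraries, 34.2% of the scratch-negative and 73.2% of the scratch-positive calls, while 226 of the scratch-negative calls had too few UMIs to be tested in scratch-positive. Of those called lower, 136 were called in both, 32.4% of the scratch-negative and 36.0% of the scratch-positive calls. Another 159 of the lower scratch-negative calls had too few UMIs to be tested in scratch-positive. Since these cells were divided by Ccl3 and Ccl4, the counts describe what accompanied those transcripts.

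Chemokine genes other than Ccl3 and Ccl4 were also higher in members. Of the chemokine list, 9 of 14 tested genes were called higher in scratch-negative and 8 of 12 in scratch-positive, Ccl3 and Ccl4 among them, and none lower. Cxcl2 stood at 42950 CPM in scratch-negative Camp-low members against 3280 CPM in Camp-low other neutrophils, 13.1-fold higher (12.8 to 13.3). In scratch-positive it stood at 55892 against 9413 CPM, 5.94-fold higher (5.80 to 6.08). In control it was 5373 against 692 CPM. Cxcl2 thus ran in the same order of libraries in both sets of cells, with its level in control members between the other neutrophils of scratch-negative and of scratch-positive.

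Cxcl3 was 21.6-fold higher in scratch-negative members (3434 against 159 CPM, 19.98 to 23.45) and 6.65-fold higher in scratch-positive members (5230 against 787 CPM, 6.12 to 7.22). In control members it held 10 UMIs, 107 CPM. Ccl2, a monocyte attractant, was 7.07-fold higher in scratch-negative members and 6.11-fold in scratch-positive. Cxcl1, another CXCR2 ligand, stood at 90.9 against 42.5 CPM in scratch-negative and at 355 against 23.5 CPM in scratch-positive, where 13.5% of members held a UMI. Cxcl10, a T-cell attractant induced by interferon, was 8.97-fold higher in scratch-negative members (1805 against 201 CPM) and 1.74-fold in scratch-positive (1394 against 803 CPM). Ccl6, a chemokine of resting neutrophils, did not reach a 2-fold difference in either library, with log2 ratios of 0.69 and 0.42.

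The cytokine list gave 11 of 16 tested genes higher in scratch-negative and 10 of 17 in scratch-positive, and none lower. Il1a stood at 570 CPM in scratch-negative Camp-low members and 33.7 CPM in other neutrophils, and at 1222 and 186 CPM in scratch-positive. No Il1a UMI was found in the 26 control members, which allows up to 32.0 CPM. Tnf, the inflammatory cytokine TNF, stood at 714 against 43.3 CPM in scratch-negative (16.5-fold, 14.1 to 19.4) and at 1364 against 156 CPM in scratch-positive (8.72-fold, 7.29 to 10.51). In control, Tnf was 32.0 CPM in members and 52.2 CPM in other neutrophils, with intervals that overlapped. Tnf and Il1a thus stood higher in members than in other neutrophils of both tumour libraries, and no such difference was detectable in the few control members.

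Il23a, which encodes the subunit particular to IL-23, had the largest fold in both libraries of the 15 genes named as highest. It stood at 108 CPM in scratch-negative members against 1.42 CPM in other neutrophils, 75.9-fold (35.3 to 194) on 7 UMIs in the latter. In scratch-positive it stood at 454 against 29.98 CPM, 15.1-fold (10.2 to 23.3). A UMI of Il23a was found in 12.8% of the scratch-negative and 29.0% of the scratch-positive members. At 2000 UMIs a cell the shares were 7.61 and 30.6%, against 0.329% of keratin-high cells. Il23a was thus absent from the counts of most members even where its summed level was high.

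Il1b, abundant in neutrophils generally, differed less: 20079 against 5201 CPM in scratch-negative (3.86-fold) and 27274 against 9706 CPM in scratch-positive (2.81-fold). Il1rn, which encodes the IL-1 receptor antagonist, was 5.93-fold and 4.67-fold higher in the members of those libraries. Csf1, the growth factor of macrophages and osteoclast precursors, was 914 against 75.8 CPM in scratch-negative (12.1-fold) and 699 against 110 CPM in scratch-positive (6.34-fold). Csf1 in control was 299 against 57.4 CPM, on 28 UMIs found in 23.1% of the 26 members. Osm, encoding oncostatin M, stayed under 2-fold in both libraries (log2 ratio 0.28 and 0.35).

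**Figure D2:**
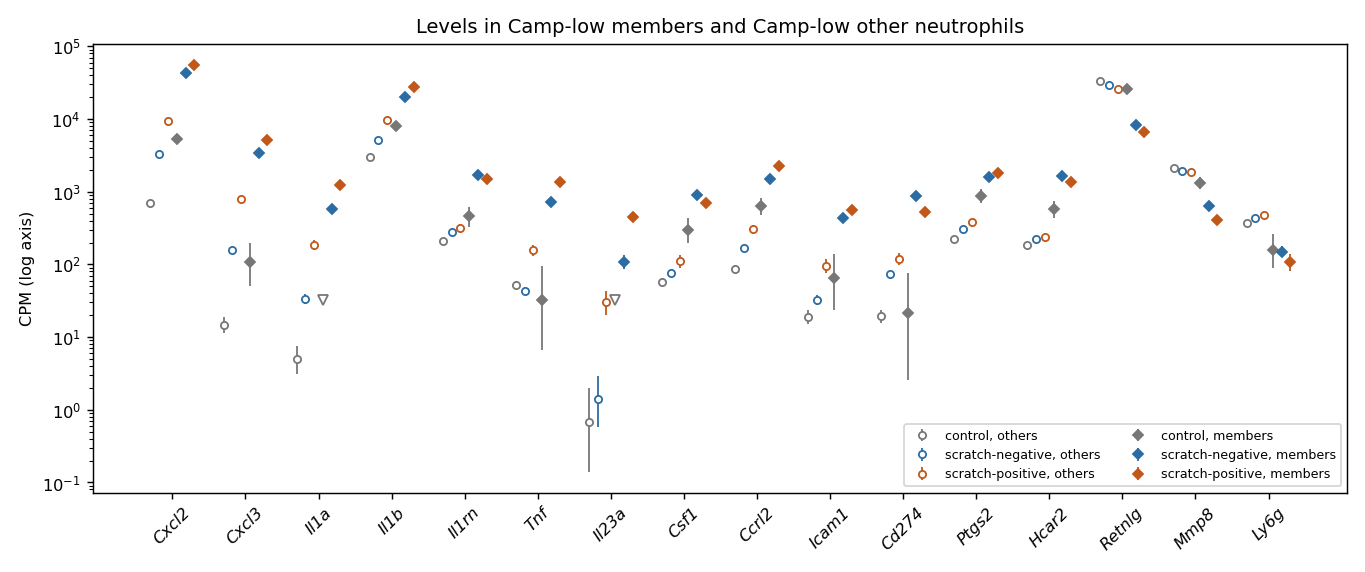
Levels (CPM of summed UMIs, log axis) of 16 genes in Camp-low members (filled diamonds) and Camp-low other neutrophils (open circles) of control, scratch-negative and scratch-positive, with exact Poisson 95% bars; an open triangle marks the limit that 0 UMIs allow. Cxcl2, Cxcl3, Il1a and Il23a lie highest in scratch-positive members, while Retnlg, Mmp8 and Ly6g lie lowest there.

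The calvaria is bone, so cytokines known to act on osteoclasts, the bone-resorbing cells, were listed separately. Of that list, 11 of 14 tested genes were higher in scratch-negative members and 8 of 12 in scratch-positive, and none lower. Both counts include Ccl3 and Ccl4, by which the members were chosen. The genes called in both were Il1a, Il1b, Il1rn, Tnf, Csf1, Ccl3, Ccl4 and Ccl9, and 5 of these also stand in the cytokine list and 3 in the chemokine list. Spp1, encoding osteopontin, was 1197 against 246 CPM in scratch-negative and 1710 against 879 CPM in scratch-positive, where its log2 ratio of 0.96 missed the 2-fold limit. Tnfsf11, which encodes the osteoclast factor RANKL, had 1.21 CPM in scratch-negative members and no UMI in scratch-positive members. Il17a and Il10 had no UMI in the Camp-low members of either library.

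NF-kB targets and the genes that feed back on NF-kB were called higher in most cases. Of these, 21 of 24 tested genes were higher in scratch-negative and 17 of 23 in scratch-positive, and none lower. The median log2 ratio was 2.04 and 1.67. Nfkbia, the inhibitor IκBα, stood at 6085 against 705 CPM in scratch-negative (8.63-fold, 8.26 to 9.02) and at 8604 against 1743 CPM in scratch-positive (4.94-fold, 4.66 to 5.23). Tnfaip3, the feedback inhibitor A20, was 7.53-fold and 4.88-fold higher. Icam1, an adhesion molecule, was 13.4-fold and 5.85-fold higher. The genes for the factor itself moved less, with log2 ratios of 0.90 and 0.64 for Nfkb1 and of 1.44 and 0.67 for Rel.

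Immediate early genes, switched on within minutes of a stimulus, gave 17 of 26 higher in scratch-negative and 16 of 24 in scratch-positive. Egr1 was 5.42-fold and 3.53-fold higher. Jun had log2 ratios of 1.83 and 1.93, and Fos had −0.72 and −0.06. Fosl1 was the gene of that list called lower, in scratch-negative at a log2 ratio of −1.52. Of the heat shock genes, Hspa1a had a log2 ratio of −0.30 in scratch-negative and Hspa1b was called lower there (−1.24). Hspa1a was higher in scratch-positive members (2.91), on 34 UMIs in 6.45% of the cells. The part of tissue handling in these genes was not tested.

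Survival genes gave 13 of 22 higher in scratch-negative and 11 of 20 in scratch-positive, and none lower. The neutrophil survival genes Bcl2a1a, Bcl2a1b and Bcl2a1d had log2 ratios of 4.05, 3.46 and 3.11 in scratch-negative and of 2.34, 2.38 and 2.31 in scratch-positive. These 3 are near-identical copies, so reads could be split among them and their separate values are uncertain. Mcl1, on which neutrophil survival depends, had log2 ratios of 1.18 and 0.93, and Gadd45b had 2.48 and 2.10.

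Several surface receptors accompanied the cytokines. Ccrl2, which binds the attractant chemerin, was 8.92-fold (8.16 to 9.76) and 7.30-fold (6.41 to 8.34) higher. Clec4n, the fungal receptor Dectin-2, was 8.36-fold and 5.01-fold higher. Hcar2, the receptor for niacin and ketone bodies, was 7.45-fold and 5.68-fold higher. Cd274, which encodes the T-cell checkpoint ligand PD-L1, stood at 883 against 73.6 CPM in scratch-negative (12-fold, 10.6 to 13.7) and at 531 against 118 CPM in scratch-positive (4.51-fold, 3.60 to 5.68). Cd274 in control members rested on 2 UMIs, at a level within the interval of the other neutrophils' value. Cxcr2, the receptor for CXCL2 and CXCL3, stayed under 2-fold in both libraries, at log2 ratios of 0.23 and −0.13. Ptgs2, which encodes the prostaglandin enzyme COX-2, was 5.27-fold and 4.72-fold higher.

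Interferon-stimulated genes were called higher in more cases in scratch-negative. Of the type I interferon list, 21 of 25 tested genes were higher and 1 lower there, against 11 of 23 higher and none lower in scratch-positive. The interferon gamma list gave 18 of 21 higher in scratch-negative, and 12 of 20 higher with 1 lower in scratch-positive. The difference between the libraries in these counts was not tested. Gbp2, a guanylate-binding protein, was 8.10-fold and 3.04-fold higher. Isg15, a ubiquitin-like modifier, was 4.44-fold and 2.88-fold higher. Ifit1 was 8.77-fold and 2.62-fold higher, with UMIs in 30.8 and 13.5% of the members. In control members the 28 UMIs of Ifit1 all came from 3.85% of the 26 cells, which is a single cell.

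Some granule transcripts were lower in members. Of the specific granule list, 6 of 13 were lower in scratch-negative and 9 of 13 in scratch-positive, and none higher. Of the gelatinase and late granule list, 5 of 12 and 6 of 11 were lower and none higher. The neutrophil maturation and ageing list went both ways, with 5 of 26 higher and 4 lower in scratch-negative and 2 of 26 higher and 5 lower in scratch-positive, and its median log2 ratio was 0.61 and 0.41. Retnlg, a resistin-like secreted protein typical of mature neutrophils, stood at 8158 against 29341 CPM in scratch-negative (3.60-fold lower, 3.51 to 3.69) and at 6740 against 26026 CPM in scratch-positive (3.86-fold lower, 3.72 to 4.005). In control it was 26030 against 33803 CPM. Retnlg in control members thus stayed near the level of the other neutrophils.

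Mmp8, neutrophil collagenase, was 2.99-fold lower in scratch-negative members and 4.56-fold lower in scratch-positive. Ly6g, the surface antigen by which mouse neutrophils are usually sorted, was 2.92-fold lower (150 against 439 CPM) and 4.46-fold lower (107 against 479 CPM). S100a8, a subunit of calprotectin, was 2.27-fold and 2.28-fold lower, and Lyz2, lysozyme, 2.86-fold and 3.27-fold. Padi4, the enzyme that citrullinates histones in neutrophil traps, was 2.88-fold and 5.67-fold lower. Mmp9, gelatinase B, had log2 ratios of −0.74 and −0.97 and was not called. Camp-low members were shallower than Camp-low other neutrophils (medians of 2983 against 4424 UMIs in scratch-negative and 2569 against 3401 in scratch-positive). With all cells at 2000 UMIs, Retnlg was still found in 69.0 against 94.0% of cells in scratch-negative and in 50.4 against 85.2% in scratch-positive.

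**Figure D3:**
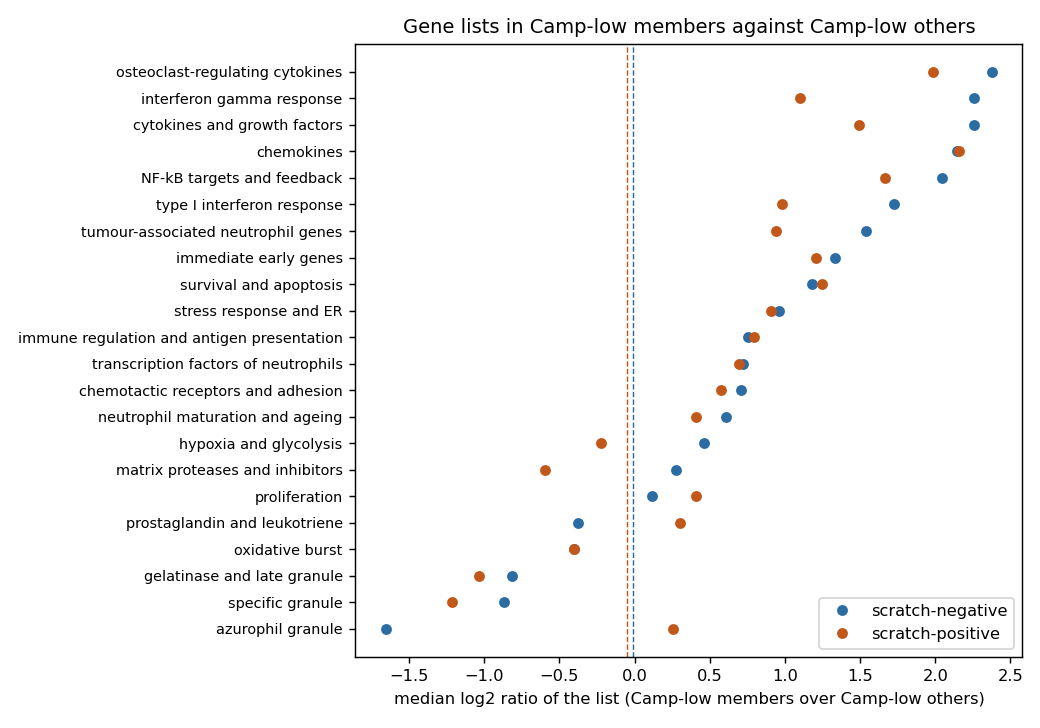
Median log2 ratio of each gene list in Camp-low members over Camp-low other neutrophils, in scratch-negative (blue) and scratch-positive (orange); dashed lines mark the medians over all tested genes, −0.01 and −0.05. Cytokine, NF-kB and interferon lists lie to the right in both libraries, and specific and gelatinase granule lists to the left.

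By the rule for named genes, the 15 highest in both libraries were Il23a, Tnf, Ccrl2, Cxcl3, Il1a, Csf1, Cxcl2, Icam1, Hcar2, Irgm1, Arid5b, Bcl2a1b, Bcl2a1a, Clec4n and Bcl2a1d. Irgm1 encodes an interferon-induced GTPase that defends against intracellular microbes and was 7.60-fold and 5.44-fold higher. Arid5b encodes a chromatin regulator and was 6.69-fold and 5.28-fold higher. The 10 lowest were Rab3d, Bmx, Retnlg, Itgb2l, Syne1, Cdadc1, Mmp8, Rflnb, Fmo5 and Tkt. Rab3d, a GTPase of secretory vesicles, was 3.88-fold and 4.30-fold lower on 16 and 7 UMIs in members. Bmx, a Tec-family kinase of myeloid cells, was 3.62-fold and 3.70-fold lower. Tkt, transketolase of the pentose phosphate pathway, was 2.97-fold and 4.19-fold lower.

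Hypoxia and matrix genes gave unlike counts in the scratch-negative and scratch-positive libraries, a difference that was not tested. Of the hypoxia and glycolysis list, 11 of 29 were higher and none lower in scratch-negative, against 1 of 28 higher and 3 lower in scratch-positive. Hk2, the inducible hexokinase, was 241 against 61.2 CPM in scratch-negative and 60.8 against 72.8 CPM in scratch-positive. Hilpda, which limits the breakdown of lipid droplets, was called higher in both, 5.41-fold and 2.45-fold. Of the matrix protease list, 5 of 20 were higher and 4 lower in scratch-negative, and 1 of 18 higher and 7 lower in scratch-positive. The stroma markers moved with the matrix genes. They summed to 1328 CPM in scratch-negative Camp-low members and 1011 CPM in the other neutrophils, but to 184 and 1284 CPM in scratch-positive, where Pdgfra, Pdgfrb, Lum and Bglap were at 0 in members. The part of stromal RNA in the matrix result was not tested.

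Scratch-positive and scratch-negative Camp-low members were then compared with each other, a contrast the rule did not use. Of 4097 genes, 231 (5.64%) were called higher in scratch-positive and 270 (6.59%) lower. Among Camp-low other neutrophils, 593 of 7316 (8.11%) were higher and 223 (3.05%) lower. The genes higher in scratch-positive members were led by Il23a, Gpr84, Cd74, Scimp, Dusp2, Traf1, Il1a, Sbds and Bcl2a1d, the 9 that met the rule for named genes. Il23a was 4.21-fold higher (3.28 to 5.44) and Il1a 2.14-fold (1.90 to 2.42). Both were also higher in scratch-positive among the other neutrophils, 21.1-fold and 5.52-fold.

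Gpr84, a receptor for medium-chain fatty acids, was 3.81-fold higher in scratch-positive members (166 against 43.7 CPM) and 3.95-fold among other neutrophils. Scimp, an adaptor of Toll-like receptor signalling, was 2.44-fold and 4.68-fold higher. Traf1, a signalling adaptor of TNF receptors, was 2.18-fold and 2.68-fold higher. Cd74, the invariant chain of MHC class II, was 263 against 84.9 CPM in members, 3.104-fold (2.30 to 4.21). Among other neutrophils Cd74 was 97.4 against 135 CPM, so there it was not higher in scratch-positive. The class II genes H2-Ab1 and H2-Aa were not called between the member sets (log2 ratios 0.57 and −0.45). The dendritic cell markers, which include both, summed to 338 CPM in scratch-positive and 142 CPM in scratch-negative Camp-low members, with Flt3, Xcr1, Clec9a, Cd209a and Siglech at 0 in both, and their part in the Cd74 result was not tested.

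The cytokine list gave 5 of 17 higher in scratch-positive Camp-low members and none lower. Carcinoma markers summed to 190.5 CPM in these members against 21.8 CPM in scratch-negative, and to 149 against 17.3 CPM in Camp-low other neutrophils, with Krt5, Krt19 and Epcam at 0 in both member sets. Osteoclast markers summed to 188 against 66.7 CPM, with Oscar and Calcr at 0 in both, and stroma markers to 184 against 1328 CPM. The part of these markers in the cytokine result was not tested. Besides Il1a and Il23a the 5 were Csf3 (G-CSF), Tnfsf9 (4-1BB ligand) and Areg (amphiregulin). Csf3 was 6.22-fold higher (136 against 21.8 CPM), but only 5.81% of the scratch-positive members held a UMI. Areg was at 74.97 against 1.21 CPM, the latter a single UMI, and 2 cells held 56.5% of the Areg UMIs of all scratch-positive members. Tnf was 1.91-fold higher and missed the 2-fold limit, as did Cxcl3 (1.52-fold) and Cxcl2 (1.30-fold). Ccl4 was at 21268 CPM in scratch-negative and 21234 CPM in scratch-positive members and Ccl3 at 6396 and 8174 CPM in the same order, and both were set in part by the threshold. Among other neutrophils Cxcl2 and Cxcl3 were higher in scratch-positive, 2.87-fold and 4.96-fold.

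Several interferon-stimulated genes were lower in scratch-positive members. Of the type I list, 10 of 24 were called lower and none higher, with a median log2 ratio of −0.83, and among other neutrophils 2 of 25 were lower, with a median of −0.14. Ifit1 was 3.50-fold lower (2.62 to 4.76) in members and 1.05-fold lower (0.741 to 1.51) among other neutrophils. Rsad2, the antiviral enzyme viperin, stood at 930 CPM in scratch-negative and 255 CPM in scratch-positive members, 3.64-fold lower, and at 148 and 87.8 CPM in the other neutrophils. Oasl1, Ddx60, Ifit3 and Slfn5, also interferon-stimulated, were among the 12 genes named as lowest. Ifit3 and Ifit3b are near copies and their separate values are uncertain. Summed over each cell, the type I list had a median of 134 CP10K in scratch-negative and 118 CP10K in scratch-positive Camp-low members, and 59.6 and 90.2 CP10K in the other neutrophils.

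A minority of hypoxia and glycolysis genes were also called lower in scratch-positive members. Of the list, 7 of 28 were called lower and none higher (median log2 ratio −0.55), against 1 higher of 29 and none lower among other neutrophils (0.32). Hk2 was 3.97-fold lower (2.69 to 6.04) and led the named genes. The other 6 were Slc2a3, Pfkp, Pfkfb4, Bnip3, Egln3 and Ero1l, with log2 ratios from −1.15 to −1.01. The named genes outside these lists were the ubiquitin ligase gene Rnf144a (3.75-fold lower), the arrestin-domain gene Arrdc3 (3.48-fold), the kinase gene Mapk6 (3.31-fold), the lipid flippase gene Atp8b4 (3.27-fold) and Arhgap9 (3.24-fold). Ccl5 was lower in scratch-positive in both sets, 8.93-fold in members and 9.68-fold in other neutrophils, and T-cell and NK markers, cells that make Ccl5, summed to 82.5 CPM in scratch-negative and 14.2 CPM in scratch-positive Camp-low members. Their part in the Ccl5 result was not tested.

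**Figure D4:**
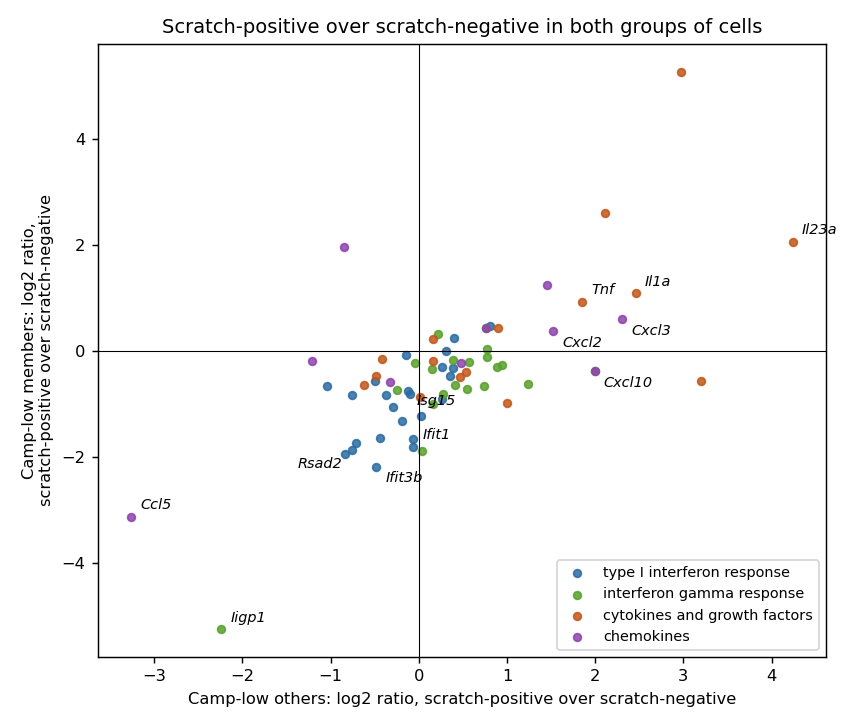
Log2 ratio of scratch-positive over scratch-negative for genes of the type I interferon, interferon gamma, cytokine and chemokine lists tested in both sets, with Camp-low other neutrophils on the x axis and Camp-low members on the y axis. Interferon genes such as Ifit1 and Rsad2 lie below 0 in members and nearer 0 in other neutrophils, while Il23a and Il1a lie above 0 in both and Ccl5 below 0 in both.

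Individual Camp-low members varied widely. Ccl4 ran from 0 (with Ccl3 alone reaching the threshold) to 1373 CP10K in scratch-negative, with a median of 107, and to 1360 CP10K in scratch-positive, with a median of 153. Cxcl2 had a median of 277 CP10K and quartiles of 113 and 704 in scratch-negative, and a median of 502 with quartiles of 214 and 857 in scratch-positive. Retnlg had medians of 7.71 and 3.33 CP10K but a 90th percentile of 192 and 134, so a minority of members kept a high level. Cxcl10 had a median of 0 in both and a 90th percentile of 63.3 and 49.3 CP10K.

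Within Camp-low members thinned to 2000 UMIs, Ccl3 and Ccl4 went together with a Spearman rho of 0.498 over 184 cells in scratch-negative and 0.541 over 121 cells in scratch-positive. The values for Ccl4 with Cxcl2 were 0.458 and 0.421, and for Ccl4 with Retnlg −0.238 and −0.234. Those for Cxcl2 with Cxcl3 were 0.596 and 0.264. The cells of a library share preparation and depth, and the threshold on Ccl3 and Ccl4 limits their range, so these are descriptions. Ccl4 with Cd274 was 0.206 and −0.0155, too weak in sparse counts to be read.

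Camp-high members were described against Camp-high other neutrophils in scratch-negative, where there were enough. Of 11648 genes, 626 (5.37%) were higher and 766 (6.58%) lower. Of the NF-kB list, 20 of 25 were higher and none lower (median log2 ratio 1.92), and of the cytokine list 11 of 21 higher and 1 lower. Cxcl2 stood at 11614 against 361 CPM and Il1a at 156 against 4.57 CPM. The proliferation list gave none of 18 higher or lower, and Mki67, a marker of cycling cells, was 240 against 222 CPM. Specific granule genes also gave no call in either direction (median −0.10), and Ltf, lactoferrin, stood at 4815 against 4019 CPM. Macrophage markers moved with these genes, 6 of 9 tested being higher and none lower, and summed to 84.1 CPM in Camp-high members against 30.5 CPM in Camp-high other neutrophils, with Csf1r, C1qa and C1qb at 0 by the rule in both. Stroma markers summed to 3121 against 1839 CPM, with 3 of 10 higher, 5 lower and a median log2 ratio of −1.44. The part of these markers was not tested. These members carried the 36.2% share of high doublet scores given above, and its part in these values was not tested.

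Without regard to Camp, members mixed both groups. In scratch-negative 906 of 12536 genes (7.23%) were higher and 1934 (15.4%) lower than in all other neutrophils. The median log2 ratio over all genes was −0.31 there, and with ratios centred on that median 1398 were higher and 1198 lower. The scratch-negative other neutrophils included the 117 deep cells with low Camp, which held 5826276 of the set's 58006525 UMIs. With all cells over 20000 UMIs left out of both sets, 293 of 9685 genes were lower. The part of the 117 cells in the lower count was not tested. In scratch-positive 990 of 9828 (10.1%) were higher and 463 (4.71%) lower. The 15 highest in both libraries were Il23a, Il1a, Cxcl3, Cxcl2, Ccrl2, Tnf, Cd274, Bcl2a1a, Bcl2a1b, Hcar2, Scimp, Clec4n, Icam1, Csf1 and Il1rn. Only Ramp1, Ska1, Ccdc28b and Prss57 met the rule for genes lower in both. Between libraries, 726 of 7429 genes (9.77%) were higher in scratch-positive members and 227 (3.06%) lower, and among all other neutrophils 285 of 12733 (2.24%) higher and 665 (5.22%) lower.

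Part of that difference came from few cells. Of the azurophil granule list, made at the promyelocyte stage, 7 of 8 genes were called higher in scratch-positive members, but a single member of 68961 UMIs held 706 of the 843 Mpo UMIs, 1938 of 2925 Elane UMIs and 575 of 630 Ctsg UMIs. The 3 deep members with low Camp held 89 of 126 Fn1 UMIs, 30 of 34 Cxcl5 UMIs, 31 of 37 Ereg UMIs and 134 of 220 Timp1 UMIs. They held 15 of 906 Il1a UMIs and 1714 of 40467 Cxcl2 UMIs, so those levels did not rest on them. Without cells over 20000 UMIs, 299 of 5495 tested genes were higher in scratch-positive members.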

How the data were processed

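The authors deposited UMI counts per gene and barcode for 3 libraries, which per the file headers came from Cell Ranger (version 6.1.2), with mm10 as the build per the submitters' processing notes. The deposited count matrices listed 31053 genes. Their 7490, 8517 and 9504 barcodes (control, scratch-negative, scratch-positive) held 100089008, 167623741 and 395654008 UMIs. The filter on genes left out 887, 325 and 335 barcodes and the mitochondrial limit 26, 41 and 66 more. Median depth of kept barcodes was 9078, 11817 and 38658 UMIs.

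UMIs were summed over the cells of a set and scaled to CPM with exact Poisson intervals. Ratios carry exact conditional binomial intervals, and shares Clopper-Pearson intervals, all at 95%. They cover counting error only, since each group had 1 library. Log2 ratios add 0.5 UMI, scaled to depth. A level of 0 was given the limit that 3 UMIs set. The chosen members and gene lists were set with earlier results of these data known, and the Camp division after the data were seen. Named genes were the 15 highest and 10 lowest in both tumour libraries, or the 12 in each direction between libraries. Each had a UMI in at least 20% of cells of the higher set. For members against other neutrophils, that share had to be reached in either tumour library, not in both. The level in the higher set also had to be above that of barcodes without Csf3r. Genes of the rule and ribosomal, mitochondrial, histone and unnamed genes were passed over.

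Doublets were not removed in the reported values. Scrublet's own threshold marked 4, 1 and 601 barcodes, too few in the first libraries to be used, so the highest scores at 0.8% per 1000 barcodes (449, 580 and 723) were removed as an alternative. Thinning drew 2000 UMIs from each cell and left out shallower cells. The alternatives were other thresholds, other minimum genes and mitochondrial limits, 2 Csf3r UMIs, thinning, median centring, equal weight per cell, no minimum on UMIs and a fold of 1.5. The calling step was tested on simulated data. Python 3.11.15 was used with numpy 2.4.6, scipy 1.17.1, pandas 2.3.3, scanpy 1.11.5 and matplotlib 3.10.9. Promoters came from RefSeq.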

Additional observations from a re-analysis of the deposited data

Results flagged for a closer look

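Only genes of the lists and those named by rule were considered here. The following were called in opposite directions in 2 parallel comparisons, and in no case was the difference between the comparisons itself tested. Over all genes, opposite calls in scratch-negative and scratch-positive numbered 2 (higher in the former) and 47 (lower in the former) for members against other neutrophils, and 9 and 1 among Camp-low cells. All values are log2 ratios of summed levels. In members against other neutrophils, Cxcl5 was −4.91 in scratch-negative and 2.16 in scratch-positive, where 34 UMIs came from 2.46% of members. Ereg was −1.35 and 3.23 (3.235 before rounding), and Fn1 −2.30 and 1.30. The 3 deep scratch-positive members with low Camp held 88.2% of the members' Cxcl5 UMIs there, 83.8% of Ereg and 70.6% of Fn1. Bcl2 was 1.08 and −5.95, the latter on 0 UMIs in members against 54, so that its size depends on the UMI fraction added. With equal weight per cell, Ereg was 0.41 and 1.42, the same direction in both libraries.

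In Camp-low members against Camp-low other neutrophils, Mmp14 was 1.01 in scratch-negative and −3.54 in scratch-positive, on 15 and 1 UMIs in members. Timp1 was 1.24 and −2.39. In scratch-positive against scratch-negative, the genes with opposite calls in members and other neutrophils were Cxcl5 (4.36 and −2.46), Fn1 (2.55 and −1.04), Mt1 (1.22 and −1.52), Pf4 (−3.06 and 1.72) and Timp1 (2.57 and −1.23). The 3 deep members held 60.9% of the Timp1 UMIs of scratch-positive members, besides the Cxcl5 and Fn1 shares above. Of the 10861 Timp1 UMIs in scratch-negative other neutrophils, 126 lay in the Camp-low ones. The part of deep cells in these opposite calls was not tested. Among Camp-low cells the genes with opposite calls were Cxcl12 (−4.25 in members and 2.66 in other neutrophils), Egln3 (−1.01 and 1.90) and Hspa1a (1.34 and −1.92). Cxcl12 was found in 0.645% of those scratch-positive members and 1.28% of the other neutrophils, so few cells carried it.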

How the results depend on the processing

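The share of members was lowest in control and highest in scratch-positive under every alternative tried. In that order of libraries it was 1.70, 11.2 and 21.9% at a threshold of 10 CP10K, and 0.309, 6.62 and 15.9% at 40 CP10K. It was 0.590, 5.51 and 10.97% with at least 1000 genes and 1.54, 14.9 and 24.0% after thinning. In scratch-negative and scratch-positive it was 11.4 and 24.4% with 2 Csf3r UMIs, and 10.1 and 21.45% without cells over 20000 UMIs. Limited to Camp under 50 CP10K it was 2.455, 15.7 and 38.35%, and with at most 20000 UMIs as well 2.62, 17.2 and 39.7%. The last 3 settings were chosen after seeing the data.

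Counts of genes moved more, and settings that left out cells also changed the number of genes tested. For members against other neutrophils in scratch-negative, centring on the median gave 1398 higher and 1198 lower, equal weight per cell 1134 lower, and a fold of 1.5 gave 1457 higher. The lower count there was 3642 of 10881 with Camp under 50 CP10K and 420 of 7198 with the depth limit added. It was 293 of 9685 without cells over 20000 UMIs. In scratch-positive equal weight gave 728 lower and a fold of 1.5 gave 983 lower. Camp under 50 CP10K gave 459 higher and 1015 lower of 6900 there, and 355 higher of 4355 with the depth limit. For scratch-positive against scratch-negative members, a fold of 1.5 gave 1258 higher and 485 lower of 7429. Camp under 50 CP10K gave 377 lower of 4740 and the depth limit added gave 231 higher of 4097. Leaving out cells over 20000 UMIs gave 299 higher of 5495. Among other neutrophils the same contrast gave 379 lower of 11767 with 2 Csf3r UMIs. Of 12733 genes it gave 175 higher and 206 lower with equal weight, and 503 and 1079 with a fold of 1.5. It gave 500 higher of 11083 with Camp under 50 CP10K, and 593 and 223 of 7316 with the depth limit. Without cells over 20000 UMIs it gave 910 and 309 of 10022. The cause was not tested beyond these settings.

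Of the named genes, Prss57 changed direction between libraries, to −0.54 with equal weight, −2.535 among Camp-low cells of at most 20000 UMIs and −3.60 without cells over 20000 UMIs, on 0 UMIs in scratch-positive members in the last pair. No paired analysis was possible because each group had 1 library. Removing the highest doublet scores moved neither a share beyond its interval nor a count by more than 1.5 times.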
